A study of Mus musculus with 14 samples.

Results

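Left ventricles of male C57Bl/6N mice were compared after 48 h of angiotensin II and after a sham operation. These were 7 of the 14 arrays of a study of 2 related inbred substrains, C57Bl/6J and C57Bl/6N, and were chosen by their source labels alone, 4 treated and 3 sham. Treated mice received angiotensin II from an osmotic mini-pump placed under the skin, and controls had the operation only. The dose is 500 ng/kg per minute in the title of the study and 500 ng/kg per hour in its design text, which the sources used here do not settle. The labels give no age, no engineered allele and no second agent. They do not say that each sample came from a different mouse, and the p-values reflect only the scatter among the samples as labelled. Arrays are called sham 1 to 3 and angiotensin II 1 to 4, numbers that only name them.

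Angiotensin II is the active hormone that renin and angiotensin-converting enzyme release from angiotensinogen. Through its type 1 receptor, which signals largely through Gq, it constricts vessels, raises blood pressure and acts on heart muscle cells and fibroblasts. Sustained exposure is known for enlarging the heart muscle, for a return of genes of the fetal heart, for deposition of collagen between the cells and for the entry of monocytes and macrophages. The adult ventricle draws most of its energy from oxidation of fatty acids, and genes of that pathway are known to be lowered in the overloaded heart.

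Signal intensities were corrected for background, quantile normalised and put on the log2 scale, and each of 9408 genes was tested with limma over all 14 arrays. A gene is said here to rise or fall where its Benjamini-Hochberg adjusted p over the 9408 was under 0.05. In C57Bl/6N, 889 genes (9.45%) rose and 745 (7.92%) fell, 17.4% in all. Rises were larger than falls: the median log2 change was 0.65 among the genes that rose and -0.49 among those that fell, and -0.04 over all 9408. Of the rises, 535 were at least 1.5-fold and 24 at least 4-fold, against 213 and 1 of the falls. Rises made up 54.4% of the calls, and 68.3% when arrays were scaled by cyclic loess in place of quantiles. The median standard error of a log2 change was 0.13. Treated and sham arrays did not overlap in 1455 of the 1634 calls (89.0%), against 28.2% of all genes tested. The calls were chosen on these same arrays, so this describes them and does not test them. The size of a change depended on how background was set. With background inferred from all rows, the change of 60 of the 137 genes named here with a call was smaller by over 1.5 times, and 51 of the 60 still passed. The median of 18 of the 28 gene lists with a median of at least 0.2 either way was also smaller by over 1.5 times, and in none of the 28 did it change sign. The plot of change against adjusted p shows that the rises reach farther.

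**Figure D1:**
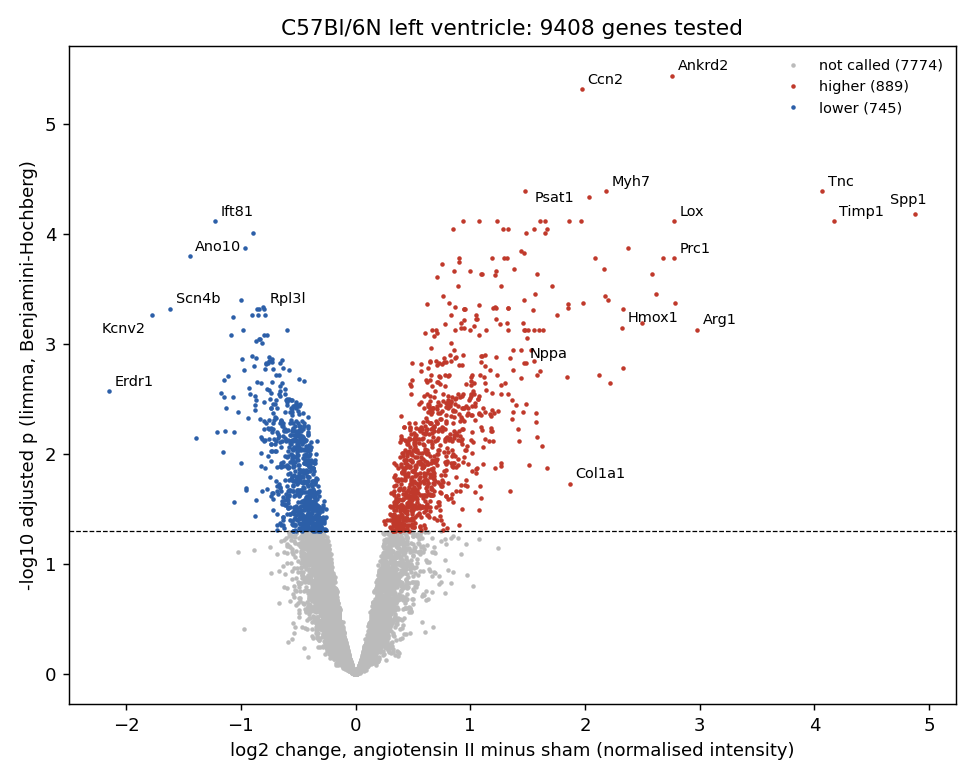
Each point is 1 of the 9408 genes tested. The x axis is the log2 change of normalised intensity, angiotensin II minus sham in C57Bl/6N, and the y axis is -log10 of the adjusted p. The dashed line marks an adjusted p of 0.05. The 889 genes that rose extend to 4.88 and the 745 that fell to -2.15.

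The tissue label was checked against marker genes. All 14 cardiomyocyte markers on the array were above background on all 7 arrays. Of 12 markers of T and NK cells, 9 were at background on every array, as were 4 of 6 B cell markers, 6 of 7 adipocyte markers, 5 of 7 epicardial markers and 6 of 11 skeletal muscle markers. The label names the left ventricle, yet 9 of 10 atrial markers were also above background on all 7 arrays. Their median relative to the sham mean was -0.92 on sham 1, 0.44 and 0.14 on sham 2 and 3, and from -0.31 to -0.01 on the treated arrays. Of 9 tested, Nppa, described below, rose and Stard10, a lipid transfer protein, fell (-0.65 ± 0.15), and 4 fell without sham 1. Whether samples differed in atrial tissue was not tested. The tissue was whole ventricle, so fewer cells of a type and less RNA per cell cannot be told apart in any result below.

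The treated arrays were not alike. Angiotensin II 4 was the lowest treated array in 719 of the 889 rises (80.9%) and the highest in 494 of the 745 falls (66.3%). Among all tested genes it was the lowest in 49.4% of the 4097 with a positive change and the highest in 46.6% of the 5311 with a negative change. Relative to the sham mean, the median of the rises was 0.77, 0.62, 0.80 and 0.38 on angiotensin II 1 to 4, and that of the falls was -0.54, -0.45, -0.61 and -0.34. So angiotensin II 4 moved the same way as the others and less far. Without it 2007 genes were called. Sham 1 also stood apart, with a median of ribosomal protein genes of -0.37 against 0.20 and 0.13 on sham 2 and 3, and in the atrial markers above. Without sham 1, 967 genes were called. Without sham 2 the number was 1107, without angiotensin II 1 it was 987 and without angiotensin II 3 it was 973.

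How far angiotensin II 4 fell short differed between gene groups, as the plot of angiotensin II 4 against the other treated arrays shows. The ratio of its list median to the mean of the other 3 was 1.03 for cardiac stress genes and 0.81 for collagen chains. It was 0.60 for fatty acid oxidation, 0.35 for phagocyte receptors, 0.28 for macrophage markers, 0.26 for mitosis, 0.23 for tubulins and 0.22 for DNA replication. These ratios come from 1 array and have no replicate. Erythroid markers were highest on it, with a median of 0.91 against 0.04 to 0.41 on the other treated arrays and -0.04 to 0.04 on the shams. Of the 6 erythroid markers, 0 passed by limma and 1 had an unadjusted p under 0.05. Their part in the differences between treated arrays was not tested.

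**Figure D2:**
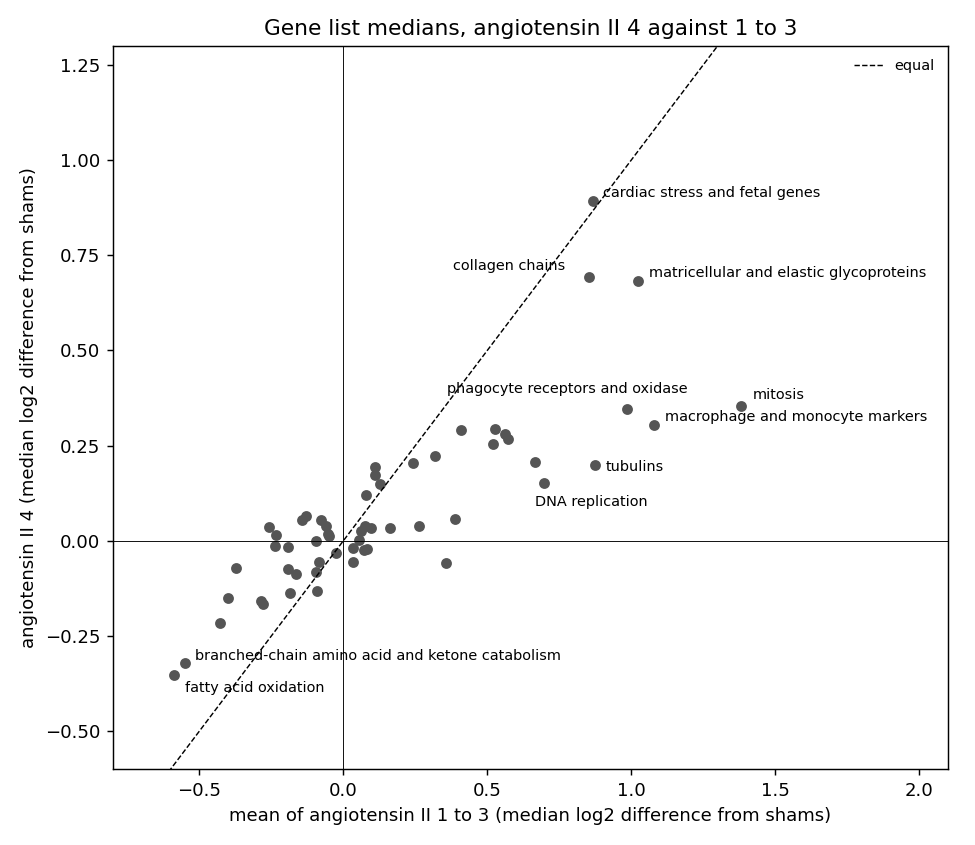
Each point is a gene list with at least 9 tested members. The x axis is the list's median log2 difference from the sham mean, averaged over angiotensin II 1 to 3, and the y axis is the same on angiotensin II 4, with equality dashed. Cardiac stress genes lie at the line, and mitosis genes, at 0.35 on angiotensin II 4, far below it.

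Genes of cardiac stress and of the fetal heart rose together. Of 22 tested members of 23 on the array, 15 rose and the other 7 did not pass (median log2 change 0.84, or 0.54 with background from all rows). Myh7, the slow myosin heavy chain that the mouse ventricle uses before birth, had log2 intensities of 8.87, 9.01 and 8.88 on the sham arrays and 11.06, 11.09, 10.80 and 11.47 on the treated arrays. The treated arrays all lay well above the shams, with angiotensin II 4 the highest of them. The rise was 4.55-fold (log2 change 2.19 ± 0.20 SE, adjusted p = 4.1e-05). Its adult counterpart Myh6 did not pass (-0.28 ± 0.12, adjusted p = 0.14).

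Ankrd2, an ankyrin repeat protein that striated muscle makes more of when stretched, was at 4.83, 4.75 and 4.70 on the shams and 7.89, 7.10, 7.96 and 7.12 on the treated arrays. No sham array and every treated array (0 of 3 and 4 of 4) showed it above background. Set against the lowest detected signal, it was at least 3.92-fold higher. Ankrd1, its relative in cardiac muscle, went from 13.55, 13.40 and 14.10 to 14.44, 14.29, 14.55 and 14.59, a rise of 0.79 ± 0.15.

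Acta1, skeletal alpha-actin and a fetal isoform of the heart, was at 12.44, 12.44 and 13.22 on the shams and at 13.62, 13.78, 13.91 and 14.18 under treatment. The groups did not overlap, and the highest value was on angiotensin II 4 (log2 change 1.17 ± 0.20). Nppa, atrial natriuretic peptide, was at 12.99 on sham 1 and 14.35 and 14.43 on sham 2 and 3, and between 15.34 and 15.44 on the treated arrays. Nppb, B-type natriuretic peptide, was at 11.77, 13.01 and 13.57 on the shams and 13.76, 13.72, 14.34 and 14.38 on the treated arrays. Sham 1 was the lowest array for both peptides, and the call of Nppb ended without it (adjusted p = 0.076). Myl1, a myosin light chain of skeletal muscle and the developing heart, rose by 0.87 ± 0.12. Uck2, a uridine-cytidine kinase, rose by 1.97 ± 0.21, with its lowest treated value, 10.32 on angiotensin II 4, above its highest sham value of 9.27.

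The promoter of Acta1 is shown because serum response factor is known to bind CArG boxes in promoters of muscle actins. The window is RefSeq's, on GRCm38.p6, from 250 bases before the gene's start to 50 after it, written 5′ to 3′ on the gene's strand, with matches to the CArG box on either strand in capitals.
Acta1 (chr8:123894726-123895025, minus strand): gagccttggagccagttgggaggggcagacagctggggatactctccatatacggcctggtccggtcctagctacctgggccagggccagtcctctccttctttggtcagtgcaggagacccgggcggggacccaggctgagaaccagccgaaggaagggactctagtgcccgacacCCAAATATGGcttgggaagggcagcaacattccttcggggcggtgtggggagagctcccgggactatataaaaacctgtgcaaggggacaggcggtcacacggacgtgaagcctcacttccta
The match begins at position -73, counted with the start base as 0. A CArG box was found in 2 of the 15 stress genes that rose and have a window (13.3%). It was found in 3 of the 20 tested stress genes with a window (15%), so those that rose did not have it more often. The share was 1.79% of the 7099 tested genes with a window and 1.81% of all 27025 genes. A match describes letters in the window and not a bound site.

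In 3 of 6 groups of extracellular matrix genes most tested members rose. Of 14 tested collagen chains, 10 rose, and treated arrays lay above all shams in each of the 14, as they did in 12.6% of all genes (median log2 change 0.82, or 0.54 with background from all rows). Col5a1, a chain of the minor fibrillar collagen that starts fibrils, was at 9.84, 9.93 and 9.98 on the shams and 11.28, 11.46, 11.42 and 10.66 on the treated arrays. Col3a1, the chain of the collagen of young, pliable scar, was at 7.27, 7.01 and 7.43 and then at 8.78, 8.83, 9.13 and 7.99. In both genes angiotensin II 4 was the lowest treated array and still above every sham array. The log2 changes were 1.29 ± 0.16 and 1.45 ± 0.23.

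Col1a2 rose by 1.48 ± 0.29. Col1a1, whose product pairs with that of Col1a2 in the main collagen of scar, went from 9.52, 9.67 and 10.08 to 11.78, 11.97, 11.65 and 11.11 (1.87 ± 0.50, adjusted p = 0.0185). That call ended without sham 1 or sham 2, with an adjusted p of up to 0.078. The spread that enters the error of Col1a1 is shared with the C57Bl/6J arrays. Col15a1 and Col6a2 had changes of 0.97 ± 0.41 and 0.75 ± 0.26 and did not pass. Col5a2 and Col8a2 were at background on all 7 arrays.

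Enzymes that mature collagen followed, with 12 of 18 tested members higher, or 7 without sham 2 or without angiotensin II 1. Lox, lysyl oxidase, which cross-links collagen and elastin, was at 7.10, 6.89 and 7.15 on the shams and at 9.95, 10.13, 10.37 and 8.84 on the treated arrays. The groups stood far apart (2.78 ± 0.29, adjusted p = 7.68e-05). Its relative Loxl1 rose by 0.94 ± 0.13. Adamts2, which trims the amino end of procollagen, rose by 0.85 ± 0.09 and Fkbp10, a chaperone of procollagen, by 0.84 ± 0.20.

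Of 23 tested matricellular and elastic glycoproteins 17 rose and 1 fell (median 0.98, or 0.54 with background from all rows). The one that fell was Fbln1, fibulin 1 (-0.73 ± 0.17), a call that ended without sham 1 (adjusted p = 0.051). Spp1, which encodes osteopontin, was at 4.78, 5.33 and 4.65 on the shams and 10.63, 9.50, 11.02 and 8.04 on the treated arrays. Tnc, which encodes tenascin C, a protein of wounds and embryonic tissue, was at 4.77, 4.99 and 4.92 and then at 9.23, 9.30, 9.63 and 7.71. For both, 0 of 3 shams and 4 of 4 treated arrays exceeded background, and angiotensin II 4 was the lowest treated array. They were at least 19.1-fold and at least 10.7-fold higher.

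Ccn2, connective tissue growth factor, a target of TGF-beta, was the most even of these, at 11.59, 11.61 and 11.58 on the shams and 13.59, 13.49, 13.80 and 13.40 on the treated arrays. The rise was 3.93-fold (1.98 ± 0.15, adjusted p = 4.84e-06). Tgfbi, a secreted adhesion protein likewise induced by that cytokine, rose by 1.53 ± 0.24. Postn, which encodes periostin of activated fibroblasts, was above background on 0 of the 14 arrays and was not tested.

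Inhibitors and proteases of the matrix were mixed, with 9 of 23 tested members higher and 1 lower, or 2 lower without angiotensin II 4. Timp1, an inhibitor of matrix metalloproteinases, was at 7.09, 8.10 and 8.74 on the shams and 12.75, 12.01, 12.90 and 10.92 on the treated arrays. Even the lowest treated value was above the highest sham value by more than the range of the shams, and the rise was 18.0-fold (4.17 ± 0.43). Serpinb1a, an inhibitor of neutrophil proteases, rose by 1.58 ± 0.27, and Adamts4, an aggrecanase, by 1.13 ± 0.23, each above background on 1 of 3 shams. Of 15 tested proteoglycans 3 rose, or 5 without angiotensin II 4, and 1 fell (6.67%, near the 7.92% of all genes). Gpc3, glypican 3, fell by 0.52 ± 0.15 on the log2 scale, a call that ended without angiotensin II 1 or 3, without sham 1 or 2 and in 5 other settings (adjusted p of up to 0.131). Among those that rose were Bgn, biglycan (0.94 ± 0.10), and Lum, lumican (0.64 ± 0.12). Bgn was nearly the same on each treated array, between 13.54 and 13.58, against 12.66, 12.44 and 12.75 on the shams. Of 9 laminin genes of the basement membrane 0 passed by limma, with 1 at an unadjusted p under 0.05.

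**Figure D3:**
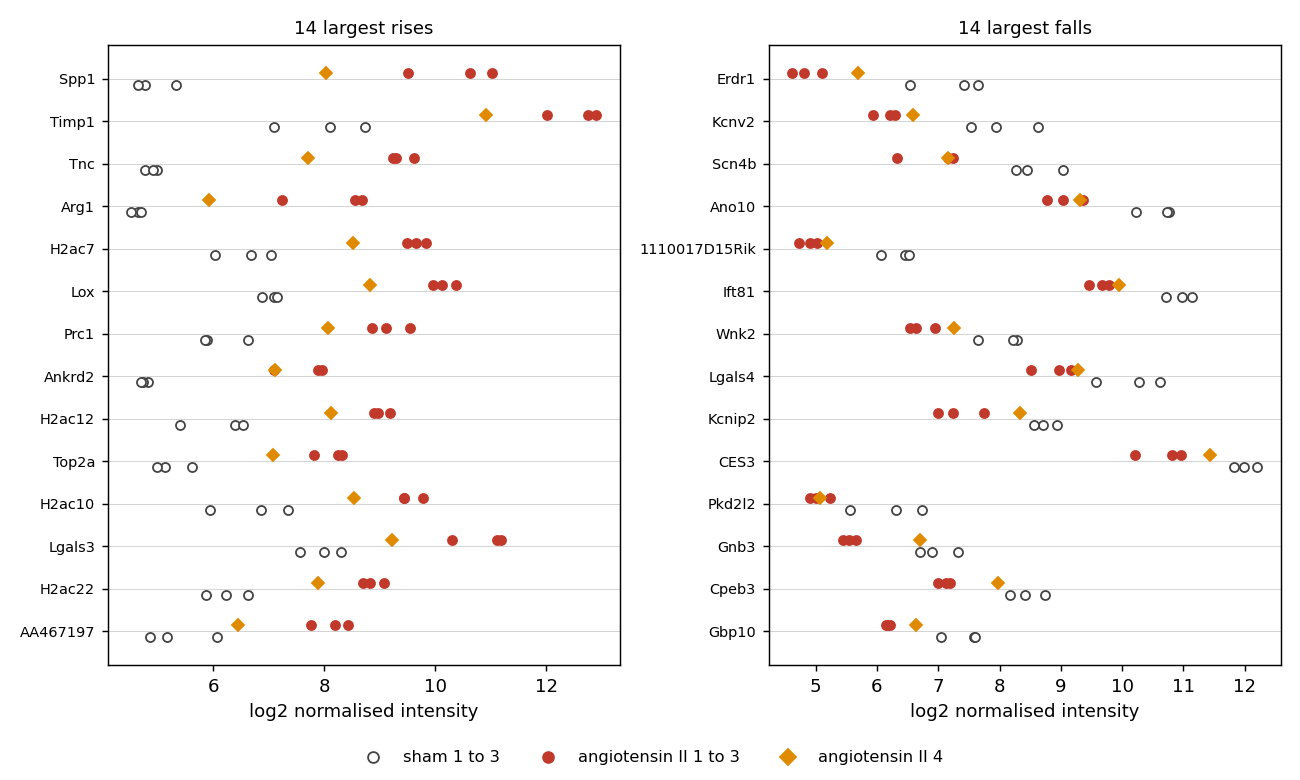
Log2 normalised intensity on each array for the 14 largest rises (left) and the 14 largest falls (right) among genes whose groups do not overlap. Open circles are the shams, filled circles angiotensin II 1 to 3 and diamonds angiotensin II 4. In most rises the diamond lies between the other treated arrays and the shams, as in Timp1 at 10.92.

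About as many cytoskeletal genes rose as did not pass. Of 44 tested genes of the actin cytoskeleton 24 rose and 1 fell (median 0.49), with 15 higher without sham 2. Actn1, the alpha-actinin of non-muscle cells, was at 8.78, 8.98 and 8.67 on the shams and 10.46, 10.30, 10.68 and 9.73 on the treated arrays. Vim, vimentin, the intermediate filament of mesenchymal cells, went from 10.91, 10.76 and 11.15 to 12.41, 12.03, 12.33 and 11.88. Neither gene's groups overlapped, and the log2 changes were 1.48 ± 0.17 and 1.22 ± 0.17. Capg, which caps actin filaments and is abundant in macrophages, rose by 1.31 ± 0.23. Gsn, gelsolin, which severs filaments, fell by 0.67 ± 0.18 on the log2 scale, a call that ended without sham 1 or angiotensin II 1 (adjusted p of up to 0.075).

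Of 12 tested tubulins 6 rose (median 0.74). Tubb2b, a beta-tubulin best known from developing neurons, was at 7.33, 7.51 and 7.79 on the shams and 9.27, 9.05, 9.49 and 8.59 on the treated arrays (1.55 ± 0.17). Tubb6 rose by 1.18 ± 0.26. Of 17 tested S100 proteins and annexins, which bind calcium and membranes, 7 rose, including S100a11 (1.37 ± 0.23) and Anxa2 (1.04 ± 0.15). Near-identical tubulin copies may share signal on a probe, and the files give no probe sequences to tell.

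Most tested genes of mitosis rose, and about as many genes of DNA replication rose as did not pass. Of 49 mitosis genes on the array 27 could be tested and 24 of those rose (median 1.09). The median was 0.17 with background from all rows, when 21 rose, and 0.65 with no filter on detection, when 28 of the 49 rose. Only 8 of the 49 were above background on all 7 arrays and 17 were at background throughout, so the tested members include genes that entered through the arrays where they were high. Prc1, which bundles the microtubules of the dividing cell's midzone, was at 6.63, 5.89 and 5.85 on the shams and 9.11, 8.87, 9.56 and 8.07 on the treated arrays. Top2a, the topoisomerase that untangles chromosomes, was at 5.62, 5.14 and 4.99 and then at 8.24, 7.82, 8.33 and 7.08. In both, angiotensin II 4 lay below the other treated arrays and above every sham, and Top2a was above background on 1 of 3 shams. The rises were 2.78 ± 0.34 and 2.62 ± 0.35.

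Birc5, survivin, which directs chromosome segregation, was at 4.98, 5.26 and 5.19 on the shams and 7.81, 7.68, 7.91 and 6.51 on the treated arrays. Pbk, a mitotic kinase, was at 4.89, 5.09 and 4.97 and then at 7.37, 7.18, 7.73 and 6.33. Both were at background on all 3 shams, and were at least 3.81-fold and at least 3.04-fold higher. Of 30 tested genes of DNA replication 16 rose (median 0.56, or 0.33 with no background correction). With background from all rows 13 rose (median 0.10), and leaving out 1 array gave 11 to 19. Of 42 on the array 21 were above background on all 7 arrays, so the limit given for mitosis holds here too. Mcm5, a subunit of the replicative helicase, rose by 1.55 ± 0.23. Chaf1a, which loads histones behind the fork, rose by 1.20 ± 0.17, and E2f1, a transcription factor of S phase entry, was at least 2.64-fold higher. Of 18 tested cyclins, inhibitors and other regulators of the cycle 3 rose and 3 fell (median 0.14). The rises became 1 without angiotensin II 3 or sham 2 or 3, and the falls 1 without sham 1, without any of angiotensin II 1 to 3 or with cyclic loess. Cdkn1c, the inhibitor p57, fell by 0.77 ± 0.12 on the log2 scale, and the cyclins Ccng2 and Ccng1 by 0.55 ± 0.17 and 0.45 ± 0.14. E2f2, an S phase factor like E2f1, rose at least 1.33-fold, from background on all 3 shams, and the inhibitors Cdkn1a (p21) and Cdkn2d rose by 0.61 ± 0.18 and 0.40 ± 0.12. Of these 6 calls only those of Cdkn1c and E2f2 were kept whichever array was left out.

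Promoters of 3 mitosis genes are shown because a CCAAT box paired with the cell cycle homology region (CHR, searched as TTTGAA) is known from genes expressed in G2 and M phase. The windows are RefSeq's on GRCm38.p6 from 250 bases before to 50 after the start, 5′ to 3′ on the gene's strand. Capitals mark CCAAT and TTTGAA on either strand, so that ATTGG and TTCAAA are matches read from the other strand.
Prc1 (chr7:80294201-80294500, plus strand): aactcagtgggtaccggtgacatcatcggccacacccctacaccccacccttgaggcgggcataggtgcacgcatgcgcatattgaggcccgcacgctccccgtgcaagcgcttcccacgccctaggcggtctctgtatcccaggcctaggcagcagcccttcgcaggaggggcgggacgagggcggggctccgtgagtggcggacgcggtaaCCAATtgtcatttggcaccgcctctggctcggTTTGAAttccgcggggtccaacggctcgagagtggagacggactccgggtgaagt
Top2a (chr11:99024140-99024439, minus strand): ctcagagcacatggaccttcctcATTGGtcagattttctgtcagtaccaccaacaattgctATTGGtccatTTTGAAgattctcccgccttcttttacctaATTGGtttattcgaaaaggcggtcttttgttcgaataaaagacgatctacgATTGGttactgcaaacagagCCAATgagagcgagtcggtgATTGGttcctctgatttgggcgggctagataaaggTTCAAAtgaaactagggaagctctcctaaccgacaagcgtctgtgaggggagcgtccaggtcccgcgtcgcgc
Birc5 (chr11:117848987-117849286, plus strand): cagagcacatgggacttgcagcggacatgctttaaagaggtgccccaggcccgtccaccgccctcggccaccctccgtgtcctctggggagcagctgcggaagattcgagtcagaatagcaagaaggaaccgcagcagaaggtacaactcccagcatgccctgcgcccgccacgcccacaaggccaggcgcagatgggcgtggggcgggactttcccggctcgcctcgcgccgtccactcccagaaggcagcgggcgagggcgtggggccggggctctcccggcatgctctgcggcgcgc
Prc1 has a CCAAT box at -37 and a CHR at -5, counted with the start base as 0. Top2a has 6 CCAAT boxes and 2 CHRs, and the Birc5 window has neither. Both motifs occurred in 14 of the 23 tested mitosis genes that have a window (60.9%), against 5.66% of the 7099 tested genes with a window and 7.97% of all 27025. A match is a description of letters.

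Histone genes split. Of 41 tested, 10 rose and 5 fell (median 0.07), with 3 falls without sham 1, 2 or 3 or angiotensin II 2 or 3, 3 under median scaling and 10 with array weights. The largest rises were in replication-dependent H2A genes. H2ac7 was at 6.04, 7.05 and 6.68 on the shams and 9.65, 9.50, 9.84 and 8.51 on the treated arrays. H2ac22 was at 5.87, 6.63 and 6.24 and then at 8.70, 8.82, 9.07 and 7.89. All treated arrays were above all shams, by 2.79 ± 0.38 and 2.37 ± 0.28 on average. H2ac12 (2.68 ± 0.33) and H2ac10 (2.58 ± 0.33) also had angiotensin II 4 below the other treated arrays, and H2ac12 was above background on 2 of 3 shams. These H2A genes are near-identical in their coding sequence and probes may not separate them, so that they may not be 4 separate measurements. The promoter of H2ac7 is shown with CCAAT boxes in capitals, in the same window and build.
H2ac7 (chr13:23574131-23574430, plus strand): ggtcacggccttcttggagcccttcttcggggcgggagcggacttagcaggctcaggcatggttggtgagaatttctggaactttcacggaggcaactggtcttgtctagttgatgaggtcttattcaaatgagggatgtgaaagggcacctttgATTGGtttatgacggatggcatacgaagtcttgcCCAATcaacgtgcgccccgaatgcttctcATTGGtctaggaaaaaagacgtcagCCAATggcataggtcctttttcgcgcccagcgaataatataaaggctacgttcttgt
It holds 4 CCAAT boxes. All 13 called histone genes with a window, of either direction, had at least 1, against 43.0% of the tested genes, and so had 29 of the 37 tested histones (78.4%).

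Adhesion and lysosome genes moved less. Of 15 tested integrins 4 rose and 1 fell (6.67%, near the 7.92% of all genes), with 2 higher without sham 1. The one that fell, Itgb6, an epithelial subunit, did so by 0.66 ± 0.15 on the log2 scale. Of 35 tested lysosome genes 8 rose and 1 fell, with 5 higher without sham 1 and 2 lower without angiotensin II 4. Cd63, a tetraspanin of late endosomes, rose by 0.95 ± 0.14.

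Macrophage genes rose. Of 20 tested markers of macrophages and monocytes 17 rose (median 0.93, or 0.45 with background from all rows), or 11 without sham 2. The marker median was 1.15, 0.81, 1.27 and 0.30 on angiotensin II 1 to 4 and -0.13, -0.08 and 0.27 on the shams. Angiotensin II 4 was thus close to sham 3 in this measure. Cd68, a lysosomal protein of macrophages, was at 6.54, 6.78 and 7.27 on the shams and 9.13, 8.42, 8.93 and 7.30 on the treated arrays. Ms4a7, a tetraspan protein of macrophages, was at 5.68, 5.83 and 5.54 and then at 7.61, 7.39, 7.67 and 6.75. Lgals3, galectin-3, was at 7.57, 7.99 and 8.31 and then at 11.19, 10.30, 11.12 and 9.22. Each gene's groups stayed apart, Cd68 barely so, Ms4a7 was above background on 2 of 3 shams, and the rises were 1.58 ± 0.35, 1.67 ± 0.18 and 2.50 ± 0.37. Lyz1 and Ccr2, also on the marker list, were at background on all 7 arrays.

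Of 24 tested phagocyte receptors, oxidase subunits and activation genes 18 rose (median 0.80, or 0.27 with background from all rows, when 15 rose). Of 36 on the array 16 were above background on all 7 arrays and 8 were at background throughout. The limit given for mitosis, that tested members include genes that entered through the arrays where they were high, holds here too. Arg1, the arginase that alternatively activated macrophages make, had values of 4.65, 4.70 and 4.52 on the shams and 8.56, 7.25, 8.68 and 5.92 on the treated arrays. Trem2, a lipid-sensing receptor, was at 5.32, 5.25 and 5.55 and then at 7.94, 7.56, 7.76 and 6.59. Both were at background on all shams and above it on all treated arrays, at least 4.16-fold and at least 3.76-fold higher. Clec4d, a C-type lectin receptor, was at least 3.48-fold and Chil3, a chitinase-like protein, at least 2.09-fold higher. The share these rises owe to the rise of macrophage markers as a whole was not tested.

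Other immune groups moved less. Of 12 tested genes of class II antigen presentation 6 rose (median 0.53), but 1 to 3 when sham 1 or 2 or angiotensin II 1 or 2 was left out. With background from all rows 2 rose (median 0.13). Of 26 tested chemokines and cytokines 4 rose and 2 fell (7.69%, near the 7.92% of all genes). Leaving out angiotensin II 4 gave 7 higher, and leaving out sham 1 or 2 or angiotensin II 1 or 3 gave 2. Only 1 fell without sham 2 or 3 or angiotensin II 2 or 4, and without angiotensin II 1 there were 2 rises and 3 falls. Pf4, platelet factor 4, rose by 1.13 ± 0.25, and Cxcl9, a chemokine induced by interferon gamma, fell by 0.79 ± 0.16 on the log2 scale. Ccl2, which draws monocytes, was spread over 5.09, 5.93 and 6.55 on the shams and 7.40, 6.55, 7.79 and 5.81 on the treated arrays. Its groups overlapped, 2 of 3 shams were above background, and it did not pass (1.03 ± 0.48, adjusted p = 0.156). Of 22 complement and acute phase genes 5 rose and 2 fell (9.09%, again near the share of all genes), with a median of -0.14. Leaving out sham 1 or 2 or any of angiotensin II 1 to 3 gave 3 rises, leaving out one of angiotensin II 1 to 3 gave 1 fall, and leaving out angiotensin II 4 gave 5 falls. Lcn2, an iron-sequestering protein, rose by 2.22 ± 0.40 and Cfp, properdin, by 1.21 ± 0.24. C1s1, a protease of the classical pathway, fell by 0.45 ± 0.10 on the log2 scale. C3, the central component, fell by 0.53 ± 0.17, a call that ended without sham 1 or any 1 of the treated arrays (adjusted p of up to 0.266 over all settings). The interferon list had a median of -0.05, the sign of which changed with scaling. Of its 30 tested genes 2 rose (6.67%, against 9.45% of all genes), with 0 by limma without sham 1 or angiotensin II 1 or 3 (4 at an unadjusted p under 0.05 with all arrays). With array weights, and without angiotensin II 4, 2 rose and 4 fell.

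Genes for making protein rose in part. Of 51 tested cytosolic ribosomal proteins 28 rose and 1 fell (median 0.45, or 0.28 without sham 1). The list median was -0.37 on sham 1, 0.20 and 0.13 on sham 2 and 3, and reached 0.54, 0.45, 0.58 and 0.26 under treatment. Without sham 1 only 7 rose, without angiotensin II 3 it was 12 and without angiotensin II 1 it was 13. With the 7 arrays fitted alone it was 14. The exception that fell was Rpl3l, the muscle form of ribosomal protein L3. Rpl3l was at 14.44, 14.02 and 14.15 on the shams and 13.33, 13.62, 13.32 and 13.34 on the treated arrays. Rpl3, the common form, went the other way, from 12.80, 12.56 and 12.49 to 13.57, 13.48, 13.67 and 13.31. In neither gene did the groups overlap, and the log2 changes were -0.80 ± 0.11 and 0.89 ± 0.12.

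Of 33 tested genes of translocation into the endoplasmic reticulum and glycosylation there 12 rose (median 0.32, or 0.21 with background from all rows). Kdelr3, a receptor that returns resident proteins from the Golgi, was at 6.51, 6.45 and 6.68 on the shams and 8.02, 8.16, 8.38 and 7.49 on the treated arrays (1.47 ± 0.17). Its relative Kdelr2 rose by 0.86 ± 0.13, and Spcs3, a subunit of the signal peptidase, by 0.86 ± 0.17. Chaperones of the same compartment were divided, with 4 of 21 higher (2 without sham 2) and 2 lower (0 by limma without sham 1). Txndc5, a disulfide isomerase of fibroblasts and endothelium, rose by 0.70 ± 0.11. P4hb, another such isomerase that is also a subunit of collagen prolyl hydroxylase, rose by 0.74 ± 0.13. Herpud1, which acts in degradation from the endoplasmic reticulum, fell by 0.53 ± 0.13 on the log2 scale, though not without sham 1 (adjusted p = 0.060). Ribosome biogenesis had 4 of 40 higher (10%, near the 9.45% of all genes), and 0 by limma when sham 1 or 2 or angiotensin II 1 or 3 was left out. Translation factors were also near that share, with 5 of 48 higher (10.4%) and 1 lower, and 2 to 6 higher leaving out 1 array. Proteasome subunits had 1 of 33 higher. Of 19 aminoacyl-tRNA synthetases 0 passed by limma, with 2 at an unadjusted p under 0.05.

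Some enzymes that supply building blocks rose. Of 28 tested genes of the pentose phosphate, serine, one-carbon and nucleotide pathways 9 rose and 1 fell (median 0.20, or 0.04 with background from all rows), and the fall was not called without sham 1 or 2 or angiotensin II 3 or 4. Psat1, an enzyme of serine synthesis, was at 6.71, 6.46 and 6.85 on the shams and 9.03, 8.73, 9.06 and 8.03 on the treated arrays. All treated values were above all sham values, and the rise was 4.10-fold (2.03 ± 0.19, adjusted p = 4.59e-05). Tk1, thymidine kinase, rose by 0.98 ± 0.20. Tyms, thymidylate synthase, above background on 2 of 3 shams, rose by 1.14 ± 0.17. Mthfd2, a mitochondrial folate enzyme above background on 1 of 3 shams, rose by 0.89 ± 0.20. Of 16 tested genes of cholesterol synthesis 6 rose, but 2 or 3 without sham 1 or without any of angiotensin II 1 to 3, and 3 with the 7 arrays fitted alone. Sqle, squalene epoxidase, above background on 1 of 3 shams, rose by 1.46 ± 0.22.

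Most tested genes of fatty acid oxidation fell, as did 12 of 21 that break down branched-chain amino acids or ketones. Of 24 tested genes of fatty acid oxidation 18 fell and the other 6 did not pass (median log2 change -0.53). The number that fell was 12 without sham 1 or without angiotensin II 3. Acot1, an acyl-CoA thioesterase, was at 10.08, 9.55 and 9.42 on the shams and 8.86, 8.81, 8.66 and 8.43 on the treated arrays. Mlycd, malonyl-CoA decarboxylase, which lifts the block on import of fatty acids into mitochondria, was at 10.85, 10.54 and 10.27 and then at 9.82, 9.78, 9.59 and 9.86. In both, every treated array was below every sham array, and angiotensin II 4 was the lowest treated array for Acot1 and the highest for Mlycd. They fell by 0.99 ± 0.16 and 0.79 ± 0.18 on the log2 scale. Pdk4, the kinase that shuts pyruvate dehydrogenase, did not pass (-0.45 ± 0.17, adjusted p = 0.09). The shams had list medians of 0.21, -0.05 and -0.14, and the treated arrays had -0.59, -0.47, -0.71 and -0.35.

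Catabolism of branched-chain amino acids and ketones had 12 of 21 lower and 1 higher (median -0.53), with 8 lower without sham 1 and 10 without angiotensin II 3. Bckdhb, a subunit of the branched-chain ketoacid dehydrogenase, fell by 0.72 ± 0.15 on the log2 scale. Aldh6a1, of valine breakdown, fell by 0.83 ± 0.21, though not without sham 1 (adjusted p = 0.079). The gene that rose was Bcat1, the cytosolic branched-chain aminotransferase. It was at 5.76, 5.67 and 5.74 on the shams and 8.01, 7.73, 8.40 and 6.68 on the treated arrays (1.98 ± 0.27).

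In the TCA cycle and pyruvate oxidation 11 of 23 fell (median -0.35), or 5 to 7 when sham 1 or 2 or any of angiotensin II 1 to 3 was left out. The number was 4 with cyclic loess, 6 with the 7 arrays fitted alone and 17 with array weights. Dlat, a core subunit of pyruvate dehydrogenase, was at 11.18, 10.76 and 10.70 on the shams and 9.90, 10.15, 9.95 and 10.36 on the treated arrays (-0.79 ± 0.13). Slc25a11, the oxoglutarate carrier, fell by 0.54 ± 0.12 on the log2 scale. Of 20 transcriptional regulators of metabolism 6 fell, or 2 to 3 when one of the same arrays was left out and 2 with median scaling or cyclic loess. They included Perm1, a muscle regulator of mitochondrial genes (-0.64 ± 0.14). In fatty acid uptake and storage 3 of 22 fell, or 1 without sham 1 or with cyclic loess and 5 without angiotensin II 4 or with array weights, with Plin5, which coats lipid droplets of muscle, at -0.58 ± 0.11. Ppara and Ppargc1a, better known regulators of fatty acid oxidation, had changes of -0.50 ± 0.18 and -0.43 ± 0.21 and did not pass.

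In the respiratory chain the count of falls was nearer that of all genes. Of 70 tested subunits 6 fell, or 8.57%, near the 7.92% of all genes, and the median of -0.05 changed sign with scaling. The median also depended on the shams, whose list medians were -0.29, 0.15 and 0.13. It was -0.24 without sham 1, 0.04 without sham 2 and 0.02 without sham 3. Without both sham 1 and angiotensin II 4 it was -0.27, and 13 fell. The number that fell was 3 without angiotensin II 1 or 3 and 4 without sham 1. It was 10 without angiotensin II 4 or with no background correction, 2 with median scaling or cyclic loess and 20 with array weights. Of 70 mitochondrial ribosomal proteins 7 fell, or 10%, again near the share of all genes, and 1 rose (1.43%, against 9.45% of all genes). There were 4 lower without angiotensin II 1, with median scaling or with cyclic loess, 19 lower with array weights and 2 higher without sham 3. The rise was not called without sham 1 or any of angiotensin II 1 to 3. Mrpl28 fell by 0.49 ± 0.09 on the log2 scale. In glucose metabolism the directions were mixed. Slc2a4, the insulin-responsive glucose transporter, fell by 0.57 ± 0.13. Pfkfb2, the cardiac regulator of glycolysis, fell by 0.74 ± 0.17, and Pygm, muscle glycogen phosphorylase, by 0.56 ± 0.13. Pfkp, the platelet form of phosphofructokinase, rose by 0.63 ± 0.11. Of 23 genes of glycolysis and lactate 5 rose and 6 fell. The 5 rises include Slc16a3, a lactate transporter at background on all 7 arrays. Leaving out 1 array gave 1 to 6 higher and 3 to 7 lower, the fewest rises without angiotensin II 3 and the fewest falls without sham 1. Cyclic loess turned the balance, with 6 higher and 4 lower, and median scaling gave 2 higher and 4 lower.

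**Figure D4:**
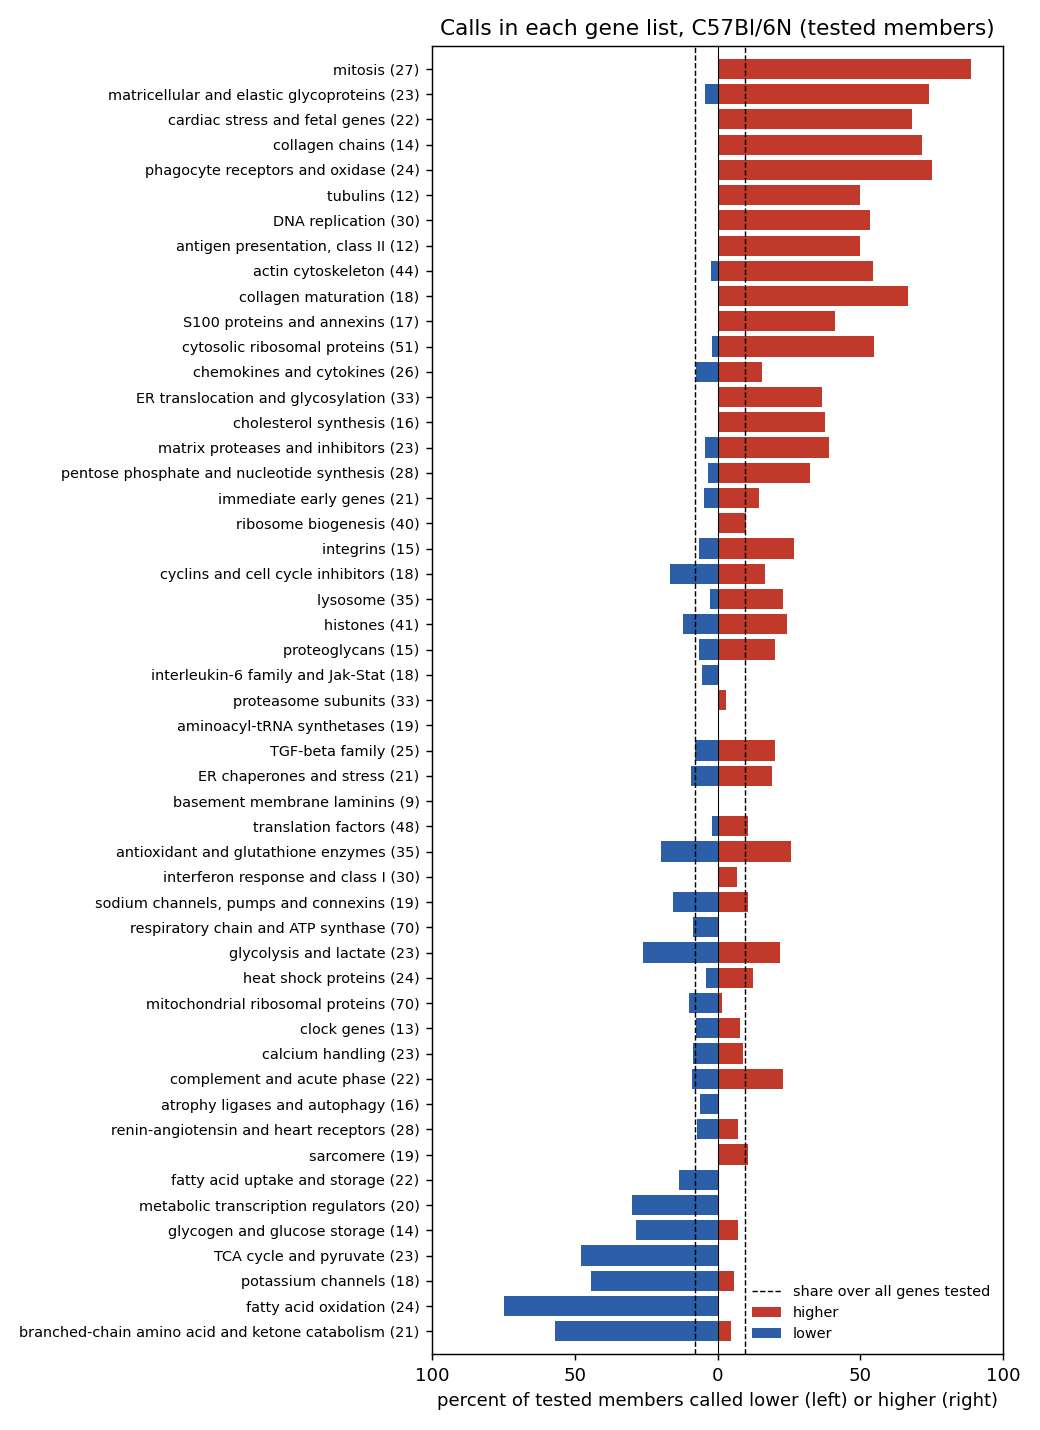
Lists with at least 9 tested members (their number in parentheses) are shown, without the lists of cell type markers. The bars give the percent of tested members that fell (left) or rose (right) in C57Bl/6N. Dashed lines mark the shares over all genes, 7.92% lower and 9.45% higher. Mitosis is at the top and catabolism of branched-chain amino acids and ketones at the foot, ordered by median log2 change.

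Ion channel genes were among the largest falls. Of 18 tested potassium channel genes 8 fell and 1 rose (median -0.35, or -0.10 with background from all rows). The number that fell was 3 without sham 1 or angiotensin II 3, 4 without sham 2 or angiotensin II 1, 3 under median scaling and 4 with cyclic loess. Kcnv2, a silent subunit that modifies Kv2 channels, was at 8.62, 7.94 and 7.53 on the shams and 6.21, 6.29, 5.93 and 6.59 on the treated arrays. Kcnip2, the subunit of the transient outward current, was at 8.93, 8.70 and 8.57 and then at 7.24, 7.74, 7.0 and 8.33. The groups were apart in both, and for Kcnip2 angiotensin II 4 came near the shams. They fell by 1.78 ± 0.26 and 1.15 ± 0.27 on the log2 scale, and the Kcnip2 call ended without sham 1 (adjusted p = 0.051). Abcc9, the sulfonylurea receptor of cardiac and vascular channels opened by loss of ATP, fell by 0.66 ± 0.12.

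Scn4b, a beta subunit of the cardiac sodium channel, was at 8.26, 8.46 and 9.03 on the shams and 7.16, 7.23, 6.33 and 7.16 on the treated arrays. Here angiotensin II 3 was the farthest from the shams (-1.61 ± 0.23). Fxyd5, a regulator of the sodium pump, rose by 1.14 ± 0.21. Among 23 calcium handling genes 2 rose and 2 fell, 8.7% each, near the 9.45% and 7.92% of all genes. The list median was -0.12, or -0.06 with cyclic loess, and 18 of the 23 changes were negative. Leaving out 1 array gave 1 to 2 higher and 1 to 3 lower. The fewest rises came without angiotensin II 1 or 4 or sham 1 or 2, and the fewest falls without angiotensin II 1 to 3 or sham 2 or 3. Hrc, the histidine-rich calcium-binding protein of the sarcoplasmic reticulum, was at 14.02, 14.09 and 14.03 on the shams and 13.35, 13.30, 12.87 and 13.68 on the treated arrays (-0.74 ± 0.14). Atp2a2, the calcium pump SERCA2, did not pass (-0.08 ± 0.08, adjusted p = 0.555). Of 19 sarcomere genes 2 rose (10.5%, also near the share of all genes), or 1 without sham 2 or 3 or any of angiotensin II 1 to 3. Without angiotensin II 4, 3 fell. The sarcomere median was -0.18, or -0.05 with cyclic loess, and 14 of the 19 changes were negative. Tpm1, alpha-tropomyosin, rose by 0.52 ± 0.12.

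Signalling and stress genes changed one by one more than as lists. Agtr1a, the main receptor of angiotensin II in mice, did not pass (-0.28 ± 0.15, adjusted p = 0.205). Adra1a, an alpha-1 adrenergic receptor, fell by 0.73 ± 0.12 on the log2 scale, and Rgs4, which curbs Gq signalling, by 0.50 ± 0.10. Grk5, a kinase that desensitises such receptors, rose by 0.65 ± 0.12. Of 25 genes of the TGF-beta family 5 rose and 2 fell (median 0.03), or 3 rose without sham 1 or 2 or with background from all rows. The 2 falls were 8% of those tested, near the 7.92% of all genes. Tgfb3 rose by 0.91 ± 0.11, Fstl1 by 1.12 ± 0.20 and Inhba, the activin A subunit, by 1.07 ± 0.20. The falls were Tgfbr3, a coreceptor (-0.43 ± 0.14), and Ltbp1, which binds latent TGF-beta (-0.43 ± 0.13), calls that both ended without sham 1 or 2 or angiotensin II 1 or 3, with median scaling and with cyclic loess. Socs3, feedback inhibitor of cytokine signalling, did not pass (0.63 ± 0.33, adjusted p = 0.208).

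Hmox1, heme oxygenase 1, which breaks down heme and is induced by oxidative stress, was at 6.17, 6.55 and 6.71 on the shams and 9.59, 8.38, 9.57 and 7.67 on the treated arrays. The groups were apart and angiotensin II 4 was the lowest treated array (2.32 ± 0.35). Mt1, a metallothionein, rose by 0.91 ± 0.17, and Gpx7, a glutathione peroxidase of the endoplasmic reticulum, by 0.92 ± 0.14. Gadd45g, a stress sensor, was at 9.30, 9.67 and 9.42 and then at 10.69, 10.50, 11.02 and 10.55 (1.23 ± 0.18). Per1, a clock gene that also responds to glucocorticoids, was at 8.55, 8.23 and 7.69 and then at 9.04, 9.26, 9.27 and 9.50, highest on angiotensin II 4 (1.11 ± 0.26). Fkbp4, a cochaperone of steroid receptors, fell by 0.69 ± 0.15 on the log2 scale. Antioxidant and glutathione enzymes had 9 of 35 higher and 7 lower, with 3 to 4 lower when sham 1 or 2 or angiotensin II 1 or 3 was left out. The balance turned with array weights, which gave 11 higher and 13 lower, and median scaling or cyclic loess gave 3 lower.

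The remaining largest falls belonged to no list. Erdr1 was at 7.65, 6.54 and 7.42 on the shams and 5.11, 4.81, 4.61 and 5.70 on the treated arrays, above background on 3 of 3 and 1 of 4. Ano10, a member of the anoctamin family, was at 10.76, 10.73 and 10.22 and then at 9.36, 9.04, 8.78 and 9.31. Ift81, a subunit of the transport complex of cilia, was at 11.14, 10.98 and 10.72 and then at 9.68, 9.79, 9.47 and 9.96. The groups were apart in all 3, with changes of -2.15 ± 0.39, -1.45 ± 0.17 and -1.23 ± 0.13. The call of Erdr1 ended when background was inferred from all rows (adjusted p = 0.18). Cpeb3, which binds messenger RNA tails, fell by 1.12 ± 0.22 and Lgals4, galectin-4, by 1.18 ± 0.22. Gnb3, a G protein beta subunit, fell by 1.14 ± 0.24 and Gbp10, a guanylate-binding protein, by 1.12 ± 0.19. Wnk2, a kinase that regulates ion transport, fell by 1.21 ± 0.26, a call that ended when background was inferred from all rows (adjusted p = 0.061). CES3, as the file names a carboxylesterase row, fell by 1.15 ± 0.22. Another pair of rows, Pkd2l2, of the polycystin family, and 1110017D15Rik, were above background on every sham array and on no treated array, and were at least 1.68-fold and at least 1.86-fold lower. The call of 1110017D15Rik ended with background from all rows (adjusted p = 0.124). AA467197, the last of the 14 largest rises, rose by 2.33 ± 0.40. The smallest standard error among genes that fell was that of Miga2, which acts in mitochondrial fusion (-0.34 ± 0.08). Among genes that rose it was that of Slc16a3, a lactate transporter, which passed the test but was above background on 0 of the 7 arrays and is given no size.

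**Figure D5:**
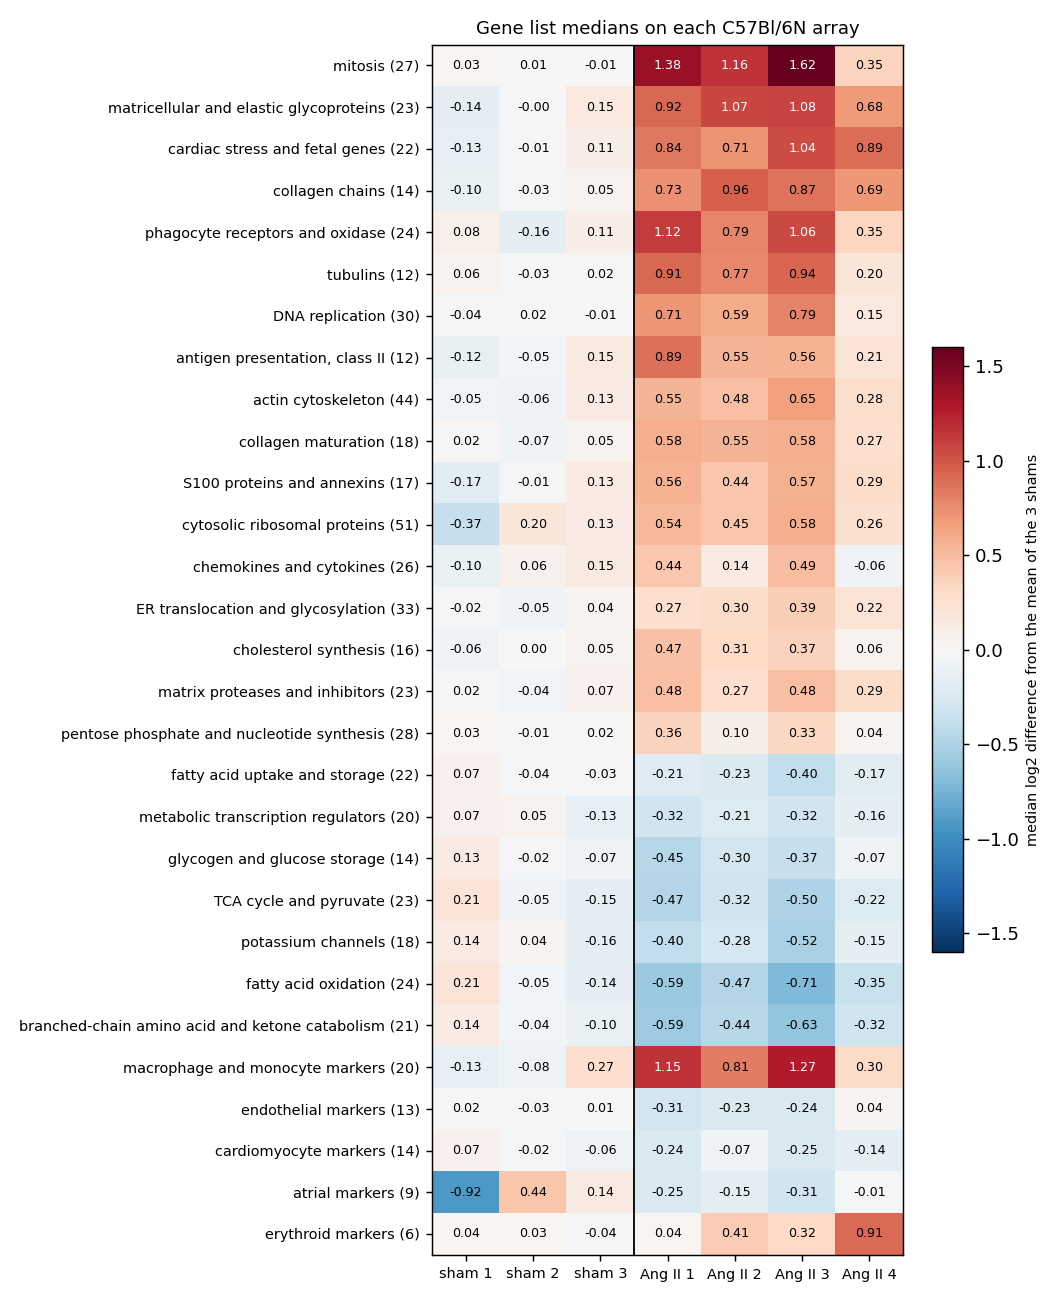
Median log2 difference from the mean of the 3 shams for each list (tested members in parentheses) on each of the 7 arrays. Lists with a median change of at least 0.2 either way come first and 5 marker lists last. Red is higher and blue lower. The columns of angiotensin II 1 to 3 resemble one another, and angiotensin II 4 is paler for mitosis at 0.35 and DNA replication at 0.15.

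Markers of the other cells of the ventricle moved less than those of macrophages. Of 14 tested cardiomyocyte markers 1 fell (7.14%), Ckm (-0.59 ± 0.15), or 3 without angiotensin II 4. The call of Ckm ended without angiotensin II 1 or 3 (adjusted p of up to 0.055). The treated arrays had list medians of -0.24, -0.07, -0.25 and -0.14, and the shams had 0.07, -0.02 and -0.06. Of 13 endothelial markers 1 fell (7.69%), Emcn, endomucin (-0.36 ± 0.10), or 3 without angiotensin II 4. This share and that of the cardiomyocyte markers lie near the 7.92% of all genes that fell. The call of Emcn ended without angiotensin II 1 or 2 or any 1 of the shams (adjusted p of up to 0.080). The endothelial medians were -0.31, -0.23, -0.24 and 0.04 against -0.03 to 0.02 on the shams. Of 11 fibroblast markers 3 rose, all collagen or lumican genes described above, and 1, Gsn, fell (9.09%, again near the share of all genes). The fibroblast medians of 0.19 to 0.30 on the treated arrays lay above the -0.08 to 0.09 of the shams. Of 12 smooth muscle and pericyte markers 3 rose and 2 fell (median -0.03, the sign of which changed with scaling), and 6 changes were positive and 6 negative. Acta2, the actin of smooth muscle and activated fibroblasts, rose by 0.74 ± 0.14, Tagln, transgelin, by 0.59 ± 0.17 and Cspg4, the pericyte proteoglycan NG2, by 0.39 ± 0.12. The falls were Abcc9 and Kcnj8, the pore subunit that pairs with it (-0.36 ± 0.11). Without sham 1 or 2, 1 rose and 2 fell, and without angiotensin II 4, 2 rose and 3 fell. The calls of Tagln, Cspg4 and Kcnj8 each ended when any 1 of angiotensin II 1 to 3 was left out. The part of any change in cell makeup in the gene groups above was not tested.

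The difference between the responses of the 2 substrains was tested for every gene in the same fit. It passed for 1 of 9408 genes (0.0106%), Ankrd2 (adjusted p = 0.00417), and 1644 had an unadjusted p under 0.05. In C57Bl/6J the change of Ankrd2 did not pass (adjusted p = 0.259). The count rose to 412 without angiotensin II 4 of C57Bl/6N, and was 569 with array weights and 0 by limma in 4 other settings. In C57Bl/6J 129 genes (1.37%) were called. Ccn2 changed by 1.82 ± 0.15 there and by 1.98 ± 0.15 in C57Bl/6N, and the difference between these did not pass (0.15 ± 0.21). For Timp1 the changes were 2.70 ± 0.43 and 4.17 ± 0.43, and for Myh7 1.09 ± 0.20 and 2.19 ± 0.20. Neither of those differences passed (adjusted p = 0.237 and 0.129).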

How the data were processed

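Per the labels' protocols, total RNA of left ventricles was DNase-treated, checked on a Bioanalyser and made into biotinylated cRNA with a kit for Illumina arrays. Linear signal intensity and a detection p-value per array, for 18138 gene rows, are what the authors deposited. Judging from its values, the intensity was neither background-subtracted nor normalised. They also deposited a table of normalised intensity of 18132 rows, used as an alternative. The sources used here do not give the array model, scanner or software.

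Intensities were background-corrected with limma 3.58.1 (R 4.3.3) by a normal-exponential model whose background mean and SD were inferred from detection p-values of the 14215 rows (78.4%) lying on a grid of 798 steps. An offset of 16, quantile normalisation over 14 arrays and log2 followed. The offset makes changes of dim genes smaller. Background inferred from all rows made most of the larger list medians smaller still. Which background setting lies nearer the true changes was not tested. Tests were run on the 9408 rows detected (p under 0.05) on 3 or more arrays. One limma model with 4 group means was fitted to all 14 arrays, so groups share 1 estimate of the spread (10 residual degrees of freedom), with Benjamini-Hochberg adjustment. The arrays detected from 46.4% to 49.3% of rows, array medians of signal in C57Bl/6N ran from 85.9 to 112, and the number of arrays limits the precision. For a group wholly at background, "at least N-fold" sets the brighter group against the detection limit, or against the gene's own dim signal where that is higher. The limma code was tested on simulated data.

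Rows were named through a RefSeq gene table of GRCm38.p6: 16970 matched a current or older symbol and 1168 kept the file's name. Promoter windows came from RefSeq on the same build, and 7099 tested genes had one. Named genes were the 14 largest rises and falls with groups apart, up to 4 called and 2 uncalled members of each list, 14 genes of the heart's response and the called genes of smallest standard error, and the text gives a selection of them, made with their stability under the alternatives known. C1s1, C3, Ltbp1, Tgfbr3, Ccng1, Cdkn2d, Kcnj8 and Fbln1 fall outside that rule and were chosen after their values were seen. The gene lists and members were chosen with earlier results of these data known. A list is described by counts and medians, with no test. The tables give no probe sequences, chips or dates, so no batch could be examined. The alternatives tried were other backgrounds, scalings, offsets and filters, the 7 arrays alone, trend and robust moderation, array weights, the deposited normalised values and leaving out each array. Leaving out sham 1 and angiotensin II 4 together was added after seeing the data.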

Additional observations from a re-analysis of the deposited data

Results flagged for a closer look

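Among the 4 treated arrays, the highest or lowest value was checked for its distance from the other 3 by Dixon's test, over 208 results (147 genes and 61 list medians). It set apart 11 of the 208 (5.29%), about the 1 in 20 groups that chance alone sets apart. Angiotensin II 4 stood apart in Gnb3 at a log2 intensity of 6.70, Gbp10 at 6.64, Cyp51, a cholesterol synthesis enzyme, at 7.23, Eef1a1, a translation elongation factor, at 13.8 and Birc5 at 6.51. In each of the 5 it lay nearer the shams than the other treated arrays. Its median of collagen maturation genes, 0.27 relative to the shams, was set apart in the same way. Angiotensin II 2 stood apart in Adra1a at 5.99 and in Rpl3l at 13.6, again on the side of the shams. On angiotensin II 3, Scn4b at 6.33, Tgfbr3 at 8.21 and Ccng1 at 12.2 were farther from the shams than on the other 3 arrays. The response of Ankrd2 differed between the substrains by the test of that difference (adjusted p = 0.00417), higher on 4 of 4 treated arrays than on every sham array in C57Bl/6N.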

How the results depend on the processing

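No gene named with a call changed direction under any alternative run, but the balance of rises and falls did, to 1282 rises against 1383 falls with array weights. Among gene lists it turned for glycolysis, sodium channel and antioxidant genes, smooth muscle markers, sarcomere, interferon, chemokine and interleukin-6 family genes in at least 1 setting. The 1634 calls became 2665 with array weights and ranged from 967 (without sham 1) to 2007 (without angiotensin II 4) when 1 array was left out. The 889 rises ranged from 578 to 1044 then. The 745 falls ranged from 378 to 963, and were 472 with median scaling and 1383 with array weights. The share of calls that were rises was 54.4%, and 63.4% with median scaling, 68.3% with cyclic loess and 48.1% with array weights. The single difference between substrains became 0 with no background correction, with background from all rows, with the deposited normalised values and with detection on at least 7 arrays, which left Ankrd2 untested. It became 569 with array weights, 263 without sham 1 and angiotensin II 4, and 1 to 412 leaving out 1 array. The causes were not tested, beyond the fewer samples of some fits. No scaling moved the median of all genes by more than 0.1. Of the 1634 calls, 903 (without sham 1) to 1550 (without angiotensin II 4) were made again with 1 array left out, and 1203 to 1615 in the other planned settings. Of the 137 genes with a call that the text names, 21 lost it without at least 1 array and 20 in another setting. That selection was made with their stability known. Of 2772 list counts over all settings, 2328 lay within 1.5 times the reported one. No paired analysis was possible because replicate numbers only follow the order of the sample list. Chip as a block was not run, since no header names chips. Dim genes have only bounds. The sign of the list median changed with scaling for antioxidant, glycolysis, interferon, respiratory chain, sodium channel, neutrophil and smooth muscle genes.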
